A study of Mus musculus with 3 samples.

Results

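GABAergic neurons and neuroblasts made up 495 of the 36354 cells kept from CD11b+ preparations of mouse fetal brain at E18.5, shortly before birth. They were found by their transcripts. A cell was a member when it had at least 500 detected genes, at most 10% of its unique molecular identifiers (UMIs, 1 per captured RNA molecule) from mitochondrial genes, and less than 1% from the complement genes C1qa, C1qb and C1qc. It also had to show at least 3 of the 4 neuronal genes Tubb3, Stmn2, Dcx and Map2, at least 2 of the 5 GABAergic genes Dlx1, Dlx2, Dlx5, Gad1 and Gad2, and none of the 3 glutamatergic genes Neurod2, Neurod6 and Tbr1. There were 73 members in Gzmb-cko poly(I:C), 295 in Ncr1-cre poly(I:C) and 127 in Ncr1-cre saline.

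Each of those 3 groups is a single droplet library that counts the 3′ ends of transcripts. In the Gzmb-cko library the genotype was Ncr1-cre;gzmbf/f, in which Cre from the Ncr1 locus, active in natural killer and related innate lymphoid cells, acts on a floxed allele of Gzmb, the gene of the cytotoxic protease granzyme B. The other libraries carried Ncr1-cre alone, so all 3 share the Cre. Poly(I:C), a synthetic double-stranded RNA that mimics viral infection, was given in 2 of them and saline in the third. The labels leave out how much was injected and when, how many fetuses went into a library, and whether dams or fetuses carried the stated alleles. Cells came from a Percoll gradient and were enriched on magnetic beads for CD11b, a myeloid integrin encoded by Itgam, so neurons in these libraries are cells that the enrichment was not aimed at.

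In the embryonic forebrain, GABAergic neurons arise in the ganglionic eminences under the homeobox factors of the Dlx family, which switch on the enzymes that make GABA. The lateral eminence yields striatal projection neurons, marked by Six3, Isl1, Ebf1 and Foxp1, and neuroblasts bound for the olfactory bulb, marked by Sp8, Pax6 and Etv1. The medial eminence yields Nkx2-1 and Lhx6 interneurons, and the caudal eminence yields Nr2f2 and Prox1 interneurons. Six3 is a homeobox factor of the early forebrain that, in mice, is also needed for striatal neurons of the indirect pathway.

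With 1 library per group, no difference has a replicate check and no test was made. Intervals are exact 95% intervals that cover counting error only, and a difference outside them separates these libraries, not the conditions. The libraries held 85442198 to 105574073 UMIs, and their lowest UMI total per barcode was 500 in both poly(I:C) libraries and 3133 in the saline library. No barcode was shared between members of different libraries. Gzmb gave 2 UMIs in the whole Gzmb-cko poly(I:C) library, against 127 in Ncr1-cre poly(I:C) and 61 in Ncr1-cre saline. These came from 1 barcode in Gzmb-cko poly(I:C), 6 in Ncr1-cre poly(I:C) and 4 in Ncr1-cre saline, so the contrast rests on few cells. No member had a Gzmb or Ncr1 UMI, so the deletion cannot be checked in the members.

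The markers of the class were read in the members, although the rule itself fixed much of this. Of the 9 GABAergic marker genes, 6 (Dlx1, Dlx2, Dlx5, Gad1, Gad2 and Dcx) were used by the rule, and the others were Dlx6, Dlx6os1 and Slc32a1. All 9 were detected in every library, and together they made up 0.297% of member UMIs in Gzmb-cko poly(I:C), 0.311% in Ncr1-cre poly(I:C) and 0.233% in Ncr1-cre saline. The same genes made up 0.00146% to 0.0027% of the UMIs of the other kept cells. Of the 7 glutamatergic markers, 3 were at 0 because the rule required it. Of the other 4, 2 were detected in members of Gzmb-cko poly(I:C), 4 in Ncr1-cre poly(I:C) and none in Ncr1-cre saline. Radial glia and astrocyte markers summed to 0.0391% of member UMIs in Gzmb-cko poly(I:C), 0.0273% in Ncr1-cre poly(I:C) and 0.0194% in Ncr1-cre saline. In the other kept cells they summed to 0.00872% in Gzmb-cko poly(I:C), 0.0225% in Ncr1-cre poly(I:C) and 0.0226% in Ncr1-cre saline. Of those 9 markers 6 or 7 were detected, with the astrocyte genes Aqp4 and Gfap at 0 in members of all 3 libraries. Oligodendrocyte precursor markers reached 0.00891% of member UMIs in Gzmb-cko poly(I:C), above the 0.000896% in the other kept cells of that library, and were all at 0 in Ncr1-cre saline. Ependymal and endothelial markers stayed at or below 0.0012%.

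Among GABAergic genes that the rule did not use, Dlx6os1, a non-coding RNA transcribed beside Dlx5 and Dlx6, was detected in 80.8% of members in Gzmb-cko poly(I:C), 83.4% in Ncr1-cre poly(I:C) and 86.6% in Ncr1-cre saline. Sp9, a zinc finger factor of the lateral eminence, was found in 78.1% of members in Gzmb-cko poly(I:C), 73.2% in Ncr1-cre poly(I:C) and 74.8% in Ncr1-cre saline. Slc32a1, the transporter that loads GABA into vesicles, was found in 42.5% in Gzmb-cko poly(I:C), 34.9% in Ncr1-cre poly(I:C) and 28.4% in Ncr1-cre saline. These 3 genes were read in at most 0.484% of microglia-like cells of any library. The median depth of members and of microglia-like cells was 6066 and 6367 UMIs per cell in Gzmb-cko poly(I:C), 5010 and 5382 in Ncr1-cre poly(I:C), and 5128 and 4792 in Ncr1-cre saline. The class label thus matched these markers, in cells that were chosen on related genes.

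The rule's thresholds cut through a continuous range. Cells with exactly 2 of the 5 GABAergic genes numbered 15 in Gzmb-cko poly(I:C), 61 in Ncr1-cre poly(I:C) and 25 in Ncr1-cre saline, just inside the rule. Cells with only 1 such gene that met every other condition numbered 17 in Gzmb-cko poly(I:C), 41 in Ncr1-cre poly(I:C) and 14 in Ncr1-cre saline. Members with C1q RNA between 0.5% and 1% numbered 9 in Gzmb-cko poly(I:C), 21 in Ncr1-cre poly(I:C) and 35 in Ncr1-cre saline. Just outside, between 1% and 1.5%, were 7 cells of Gzmb-cko poly(I:C), 6 of Ncr1-cre poly(I:C) and 17 of Ncr1-cre saline.

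RNA of other cell classes was unevenly spread over the libraries. Myeloid marker genes exceeded 1% of UMIs in 10 of 73 members of Gzmb-cko poly(I:C) (13.7%), 27 of 295 of Ncr1-cre poly(I:C) (9.15%) and 43 of 127 of Ncr1-cre saline (33.9%). Itgam, the target of the enrichment, was detected in 11.0% of members in Gzmb-cko poly(I:C), 8.47% in Ncr1-cre poly(I:C) and 23.6% in Ncr1-cre saline, and in 68.3% to 71.1% of microglia-like cells. Haemoglobin and other erythroid markers summed to 2.07% of member UMIs in Gzmb-cko poly(I:C), 1.95% in Ncr1-cre poly(I:C) and 5.43% in Ncr1-cre saline. Counting any member with over 1% of myeloid, erythroid or choroid plexus marker UMIs, 13 members of Gzmb-cko poly(I:C), 43 of Ncr1-cre poly(I:C) and 55 of Ncr1-cre saline carried such RNA. The saline members thus held the most, and results are given below also without these cells, a choice made after seeing the data. The remaining 60 members of Gzmb-cko poly(I:C), 252 of Ncr1-cre poly(I:C) and 72 of Ncr1-cre saline are called the restricted set.

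**Figure D1:**
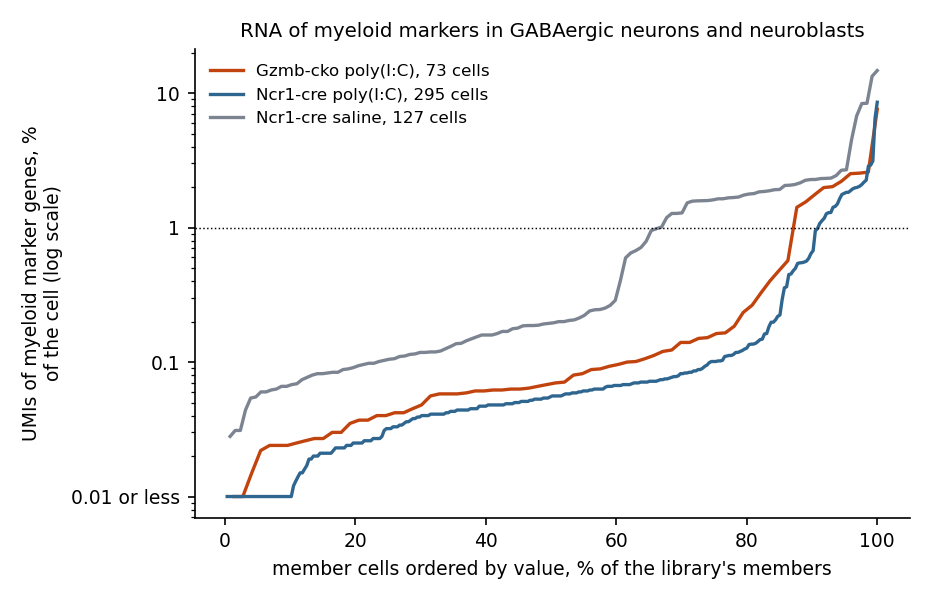
Share of each member's UMIs that came from myeloid marker genes (log axis, %), against its rank among the members of its library (%), 1 line per library; the dotted line is at 1%. The median was 0.07% in Gzmb-cko poly(I:C), 0.0557% in Ncr1-cre poly(I:C) and 0.196% in Ncr1-cre saline, and 43 of 127 saline members lay above 1%.

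The share of GABAergic cells differed between the libraries by more than counting error. Members were 0.543% of kept cells in Gzmb-cko poly(I:C) (0.426% to 0.682%), 2.74% in Ncr1-cre poly(I:C) (2.44% to 3.07%) and 1.05% in Ncr1-cre saline (0.872% to 1.24%). Gzmb-cko poly(I:C) stood lowest and Ncr1-cre poly(I:C) highest. In the restricted set the shares were 0.446% in Gzmb-cko poly(I:C) (0.341% to 0.574%), 2.34% in Ncr1-cre poly(I:C) (2.06% to 2.65%) and 0.593% in Ncr1-cre saline (0.464% to 0.746%), and the intervals of Gzmb-cko poly(I:C) and Ncr1-cre saline then overlapped. With at most 5% mitochondrial UMIs, the Gzmb-cko poly(I:C) share was 0.343%, against 3.15% in Ncr1-cre poly(I:C) and 1.17% in Ncr1-cre saline. Glutamatergic neurons, defined by the opposite marker genes, numbered 57 in Gzmb-cko poly(I:C), 33 in Ncr1-cre poly(I:C) and 34 in Ncr1-cre saline. GABAergic cells were therefore 56.2% of the cells in these neuron classes in Gzmb-cko poly(I:C) (47.2% to 64.8%), 89.9% in Ncr1-cre poly(I:C) (86.2% to 93.0%) and 78.9% in Ncr1-cre saline (71.8% to 84.9%). Since the cells passed through a gradient and a CD11b enrichment, these are shares of what was recovered, not of the brain.

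**Figure D2:**
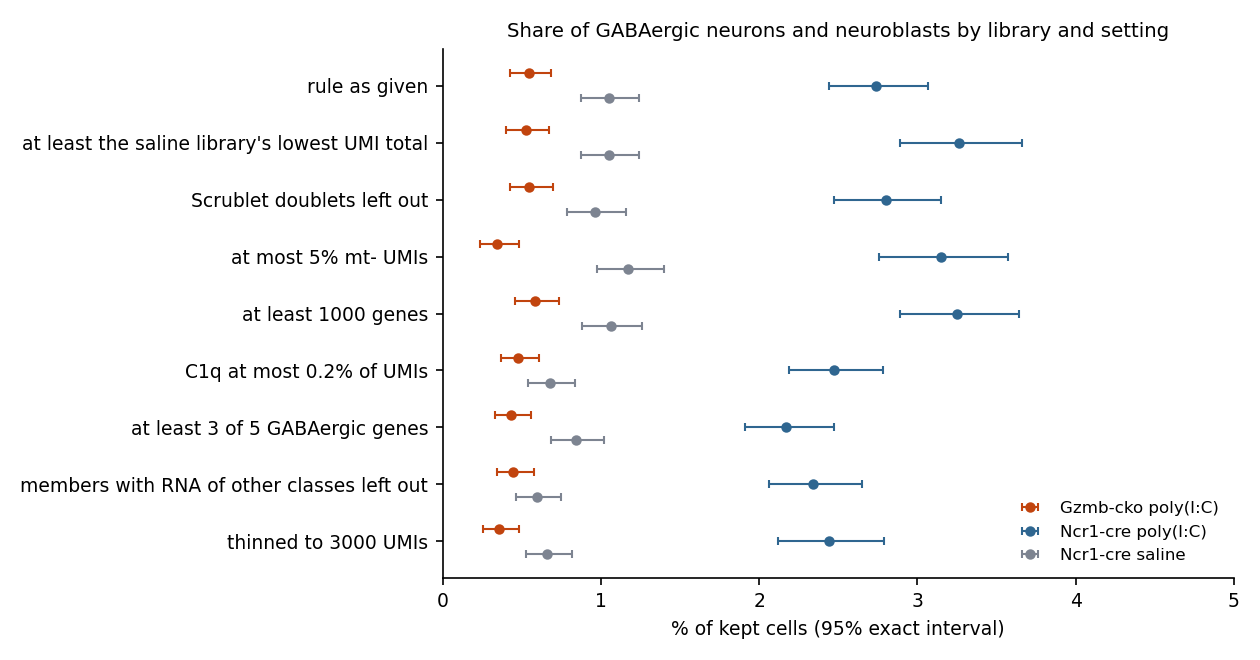
Members as a percentage of kept cells under the rule as given and under 8 other settings, with exact 95% intervals; colours mark the libraries. Ncr1-cre poly(I:C) lay between 2.17% and 3.26% in every setting shown, above Gzmb-cko poly(I:C) at 0.343% to 0.583% and Ncr1-cre saline at 0.593% to 1.17%.

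Meis2 and Bcl11b were detected in most members. Meis2, a homeobox cofactor of striatal and olfactory bulb lineages, was detected in 78.1% of members in Gzmb-cko poly(I:C), 88.1% in Ncr1-cre poly(I:C) and 93.7% in Ncr1-cre saline. It was as common in the glutamatergic neurons of the same libraries, at 91.2% in Gzmb-cko poly(I:C), 87.9% in Ncr1-cre poly(I:C) and 94.1% in Ncr1-cre saline, and so did not separate the classes. Bcl11b, a zinc finger factor of striatal projection neurons and of deep-layer cortical neurons, was detected in 75.3% of members in Gzmb-cko poly(I:C), 80.7% in Ncr1-cre poly(I:C) and 66.1% in Ncr1-cre saline. In glutamatergic neurons it was read in 42.1% in Gzmb-cko poly(I:C), 54.5% in Ncr1-cre poly(I:C) and 8.82% in Ncr1-cre saline. The medial eminence genes Lhx6 and Nkx2-1 were rare. Lhx6 was read in 4 members of Gzmb-cko poly(I:C), 14 of Ncr1-cre poly(I:C) and 3 of Ncr1-cre saline, and Nkx2-1 in 3 members of Gzmb-cko poly(I:C), 8 of Ncr1-cre poly(I:C) and 1 of Ncr1-cre saline. Of the regional factors listed for diencephalic, midbrain and hindbrain GABAergic neurons, Gata2, Gata3, Lhx1, Lhx5 and Tfap2b were each read in at most 2 members of any library. Otx2 was read in 1 member of Gzmb-cko poly(I:C), 8 of Ncr1-cre poly(I:C) and 2 of Ncr1-cre saline, and in 1.36% to 2.30% of microglia-like cells. Meis2 and Zfhx3, also on that list, were not rare, with Zfhx3 at 284 CPM over all members.

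The genes of mature striatal neurons were almost silent at this stage. Drd1, the dopamine receptor of direct pathway neurons, had 0 UMIs in members of Gzmb-cko poly(I:C), 1 in Ncr1-cre poly(I:C) and 1 in Ncr1-cre saline. Penk, the enkephalin precursor of indirect pathway neurons, had 5 UMIs in Gzmb-cko poly(I:C), 1 in Ncr1-cre poly(I:C) and 3 in Ncr1-cre saline.

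**Figure D3:**
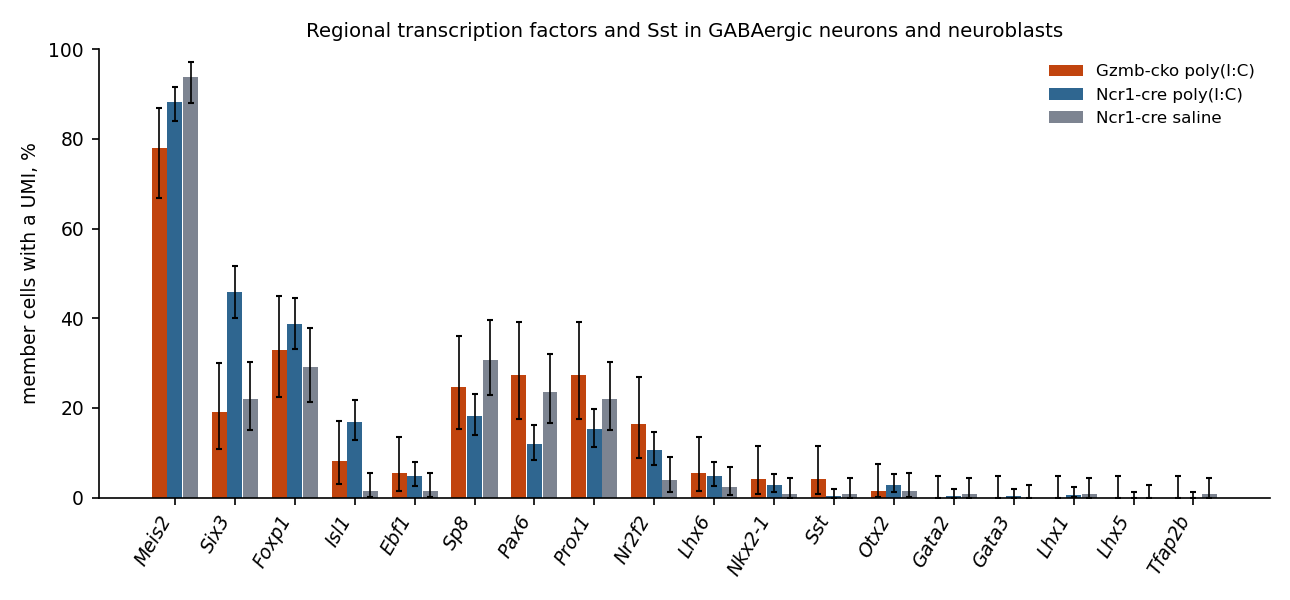
Percentage of members with at least 1 UMI of each regional gene, by library, with exact 95% intervals. Six3 was read in 19.2% of members in Gzmb-cko poly(I:C), 45.8% in Ncr1-cre poly(I:C) and 22.0% in Ncr1-cre saline, while Sp8 and Pax6 were lowest in Ncr1-cre poly(I:C).

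Six3 (ENSMUSG00000038805, chromosome 17, 85613608 to 85629302, plus strand, build mm10) had the widest gap between libraries in the share of positive members among the 18 regional genes counted. It was detected in 14 of 73 members of Gzmb-cko poly(I:C) (19.2%, 10.9% to 30.1%), 135 of 295 of Ncr1-cre poly(I:C) (45.8%, 40.0% to 51.6%) and 28 of 127 of Ncr1-cre saline (22.0%, 15.2% to 30.3%). In microglia-like cells, which should lack it, the shares were 0.744% in Gzmb-cko poly(I:C), 0.618% in Ncr1-cre poly(I:C) and 0.695% in Ncr1-cre saline. Six3 thus stood far above background in all 3 libraries, and its interval in Ncr1-cre poly(I:C) lay above both others.

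With every member thinned to 3000 UMIs, so that depth was equal, Six3 was found in 21.0% of members of Gzmb-cko poly(I:C), 38.9% of Ncr1-cre poly(I:C) and 13.4% of Ncr1-cre saline. This left out 11 shallower members of Gzmb-cko poly(I:C), 20 of Ncr1-cre poly(I:C) and none of Ncr1-cre saline. The summed level was 167 counts per 1000000 member UMIs (CPM) in Gzmb-cko poly(I:C), 587 CPM in Ncr1-cre poly(I:C) and 181 CPM in Ncr1-cre saline. It rested on 86 UMIs in Gzmb-cko poly(I:C), 1072 in Ncr1-cre poly(I:C) and 144 in Ncr1-cre saline. The level in Ncr1-cre poly(I:C) was 3.25 times that in Ncr1-cre saline (2.73 to 3.89), and the level in Gzmb-cko poly(I:C) was 3.52-fold lower than in Ncr1-cre poly(I:C) (2.83 to 4.44).

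Both the share of positive cells and the amount per positive cell contributed. Positive members held a median of 3.5 Six3 UMIs in Gzmb-cko poly(I:C), 5.0 in Ncr1-cre poly(I:C) and 4.0 in Ncr1-cre saline. Members with at least 5 Six3 UMIs were 8.22% in Gzmb-cko poly(I:C), 25.8% in Ncr1-cre poly(I:C) and 11.0% in Ncr1-cre saline. The 3 highest cells held 53.5% of the Six3 UMIs in Gzmb-cko poly(I:C), 8.86% in Ncr1-cre poly(I:C) and 30.6% in Ncr1-cre saline, so the level outside Ncr1-cre poly(I:C) rests on few cells. Restricted-set members gave a ratio of 3.12 for poly(I:C) over saline and a level 3.52-fold lower in Gzmb-cko than in Ncr1-cre, both under poly(I:C). With at most 5% mitochondrial UMIs, 7 of 32 members of Gzmb-cko poly(I:C) had Six3 and the ratio of Gzmb-cko to Ncr1-cre was 0.499 in place of 0.284. Over the kept cells that were not members, Six3 was also higher in Ncr1-cre poly(I:C) than in saline (2.22 times) and lower in Gzmb-cko than in Ncr1-cre under poly(I:C) (3.03-fold). In the microglia-like cells among them it stood at 1.10 CPM in Gzmb-cko poly(I:C), 1.36 CPM in Ncr1-cre poly(I:C) and 1.47 CPM in Ncr1-cre saline. Six3 was thus not higher in poly(I:C) in that class, and which other cells carried the difference was not tested.

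**Figure D4:**
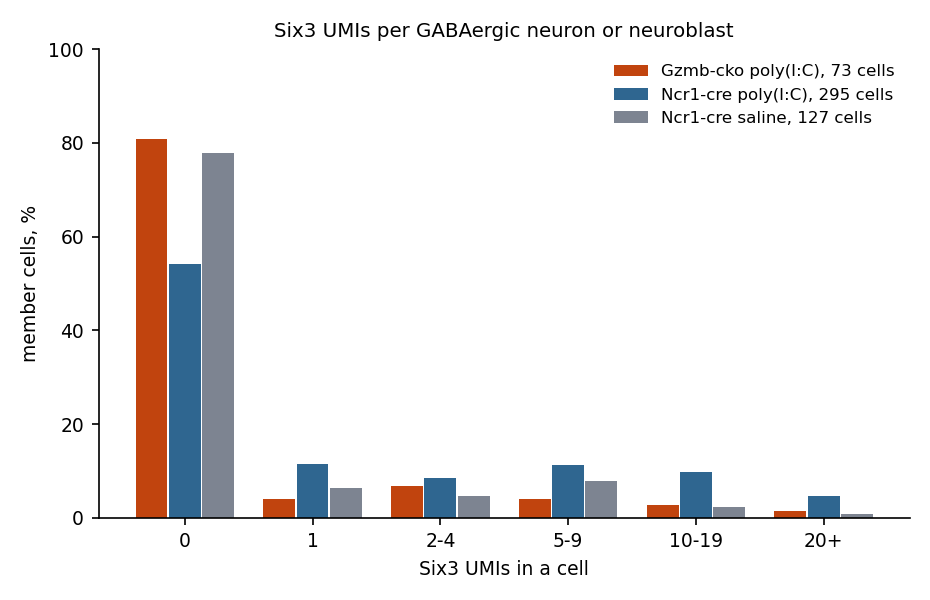
Percentage of each library's members (vertical axis) by their number of Six3 UMIs (horizontal axis), 1 bar per library and bin. Members with at least 5 UMIs numbered 6 in Gzmb-cko poly(I:C), 76 in Ncr1-cre poly(I:C) and 14 in Ncr1-cre saline.

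Members with and without Six3 differed in other regional genes. Pooled over the libraries, Tle4, a Groucho-type corepressor, was detected in 57.6% of the 177 Six3-positive members and 17.0% of the rest, and its CPM was 5.12 times as high. The other genes most associated with Six3, each higher in Six3-positive members of all 3 libraries, were Gucy1a3 (3.85 times), a subunit of the nitric oxide receptor, Tmem108 (3.52), the LIM-only factor Lmo4 (3.12), Zfhx4 (2.89), the helix-loop-helix inhibitor Id4 (2.39), Mpped2 (2.21) and Zswim6 (2.20). Stfa1 (3.49) and BC100530 (3.66), stefin protease inhibitors of neutrophils, also met that rule, but 1 cell held 96.8% and 97.0% of their UMIs in Gzmb-cko poly(I:C). Zfp503, a striatal factor, was 3.05 times as high in Six3-positive members, and 67 of the 96 members with Zfp503 also had Six3. The other striatal markers were mixed. Foxp1 was 1.76 times as high with Six3. Isl1 was 1.35 times as high in the pool, but stood at 60.4 CPM with and 76.7 CPM without Six3 in Gzmb-cko poly(I:C). It stood at 114.5 and 117.6 CPM in Ncr1-cre poly(I:C), and at 35.5 and 0 CPM in Ncr1-cre saline. Ebf1 was 2.59-fold lower with Six3, in 3 Six3-positive and 17 other members.

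Among olfactory bulb and caudal genes, some were rarer in Six3-positive cells and some were not. Sp8 was detected in 1 of 14 Six3-positive members of Gzmb-cko poly(I:C), 15 of 135 of Ncr1-cre poly(I:C) and 2 of 28 of Ncr1-cre saline. Among Six3-negative members it was detected in 17 of 59 of Gzmb-cko poly(I:C), 39 of 160 of Ncr1-cre poly(I:C) and 37 of 99 of Ncr1-cre saline. Its CPM was 3.80-fold lower in Six3-positive members, that of Etv1 3.88-fold lower and that of Nr2f1 4.61-fold lower, and each of these 3 genes was lower in Six3-positive members of all 3 libraries. Nr2f2 was 4.36-fold lower in the pool, but only through Ncr1-cre poly(I:C), with 7.63 CPM in Six3-positive and 82.4 CPM in Six3-negative members. It stood at 50.3 CPM in Six3-positive and 40.8 CPM in Six3-negative members of Gzmb-cko poly(I:C), and at 10.2 and 8.33 CPM in Ncr1-cre saline. Pax6 was detected in 15.8% of Six3-positive and 17.9% of other members, and 21 of the 35 members with Pax6 in Ncr1-cre poly(I:C) had Six3. Its CPM was lower with Six3 in Gzmb-cko poly(I:C) (30.2, against 88.7 without Six3) and higher in Ncr1-cre poly(I:C) (28.4, against 16.5) and Ncr1-cre saline (91.3, against 66.7). Tshz1, another olfactory bulb gene, was 1.52 times as high with Six3 in the pool and higher in all 3 libraries. Sp8 and Etv1 occurred together, with Etv1 in 48.6% of the 111 Sp8-positive members and 21.1% of the others. Isl1 and Ebf1, which mark direct pathway striatal neurons, occurred together in 13 of the 20 members with Ebf1. Lhx6 and Six3 were never read in the same cell, among 21 members with Lhx6, and 7 of the 12 members with Nkx2-1 had Lhx6. These pooled values weigh Ncr1-cre poly(I:C) most, since it held 135 of the 177 Six3-positive members. The median depth was 7394 UMIs in Six3-positive and 6052 in Six3-negative members of Gzmb-cko poly(I:C), 5090 and 4932 in Ncr1-cre poly(I:C), and 5775.5 and 5022 in Ncr1-cre saline.

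Under poly(I:C) against saline, both Ncr1-cre, members of the poly(I:C) library were higher in most measured striatal and neuronal genes and lower in interferon-stimulated and myeloid genes. All 11 measured striatal and lateral eminence genes were higher in poly(I:C), 8 of them at least 1.5-fold. Over all 3260 genes counted, 67.7% were higher, 17.4% at least 1.5-fold higher and 9.17% at least 1.5-fold lower. The list holds 26 genes, and 3 of the 11 measured (Isl1, Zfp503 and Ebf1) reached the minimum level with under 50 CPM in Ncr1-cre saline, which favours a higher value in poly(I:C), so the count and median are descriptions only. The median log2 ratio was 1.11, against 0.20 for all genes. That overall shift was 0.04 after trimmed-mean (TMM) scaling, under which the list's median was 0.95. Of the genes past 1.5-fold, 65.5% were higher by totals and 42.7% after TMM scaling. In the restricted set all 11 were again higher, 7 at least 1.5-fold, with a median of 0.88 against 0.09 for all genes, of which 58.3% were then higher, 11.9% at least 1.5-fold higher and 7.59% lower. The list was chosen with earlier results of these data known, Six3 among them, and cannot stand as independent evidence.

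Isl1, a LIM-homeobox factor of striatal neurons, averaged 116 CPM in Ncr1-cre poly(I:C), against 8.78 CPM in Ncr1-cre saline, a ratio of 13.2 (6.30 to 33.3). It was read in 50 poly(I:C) members and 2 saline members, and in the restricted saline set it had no UMI in 72 cells. With 3 counts taken as the limit, a fixed value and not an exact interval, that is a share of 4.17% or a level of 9.04 CPM. The restricted-set level in poly(I:C), 123 CPM, was 13.6-fold above that limit, with its own counting error left out. Zfp503 averaged 120 CPM in Ncr1-cre poly(I:C) and 13.8 CPM in Ncr1-cre saline (8.69 times, 4.76 to 17.7). Ebf1 stood at 172 CPM in Ncr1-cre poly(I:C) and 17.6 CPM in Ncr1-cre saline, but it was carried by 14 poly(I:C) and 2 saline cells. Foxp1 stood at 242 CPM in Ncr1-cre poly(I:C) and 105 CPM in Ncr1-cre saline (2.30 times, 1.82 to 2.94). Foxp1 is also read in 22.5% to 27.6% of microglia-like cells.

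Among the genes named by size and interval, Pou3f1, a POU factor of immature neurons, was 5.07 times as high in poly(I:C) (3.68 to 7.15) and Gucy1a3 4.23 times (3.19 to 5.73). Id4 was 3.47 times as high, Pnmal2 3.81 times and Zfhx4 3.16 times. Nnat, an imprinted proteolipid gene of developing neurons, reached 2.58 times (2.39 to 2.78) and was detected in 99.3% of poly(I:C) and 97.6% of saline members. Rpa3, a subunit of the single-stranded DNA binding complex, was 3.07 times as high, and Polr3k, a subunit of RNA polymerase III, 2.77 times. Igfbp2, an insulin-like growth factor binding protein, was 3.27 times as high, but 1 cell held 139 of its 225 UMIs, and the ratio was 0.957 in the restricted set. Over the kept cells that were not members, the ratios were 3.40 for Isl1, 1.58 for Zfp503, 2.42 for Pou3f1, 2.31 for Gucy1a3, 2.12 for Id4, 2.72 for Nnat, 2.24 for Pnmal2, 1.74 for Zfhx4, 1.66 for Igfbp2, 1.91 for Rpa3 and 1.31 for Polr3k. All of these genes were thus higher in poly(I:C) outside the members too.

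The 5 measured genes of GABA handling were all higher in poly(I:C), and 4 of 5 in the restricted set, with a median log2 ratio of 0.71, against 0.61 in the restricted set. Gad1 and Gad2, which make GABA, were used by the rule. Gad2 stood at 409 CPM in poly(I:C) and 220 CPM in saline (1.86 times), and Gad1 at 116 CPM in poly(I:C) and 70.2 CPM in saline (1.64 times). Slc32a1, which the rule did not use, stood at 78.3 CPM in poly(I:C) and 57.7 CPM in saline. The Dlx family and its partners, which include the rule genes Dlx1, Dlx2 and Dlx5, had 7 of 8 measured genes higher, with a median log2 ratio of 0.31, and only 3 of 8 higher in the restricted set, with a median of -0.12. Dlx6 was 2.26 times as high in poly(I:C) and Sp8 1.57-fold lower. Of 27 immature neuron and migration genes, 24 were higher, 9 of them at least 1.5-fold, with a median of 0.42. The tubulins Tuba1a (2.01 times) and Tubb3 (2.00 times) were among them, and Tubb3, Dcx and Stmn2 of that list were used by the rule. Among restricted-set members 18 of 27 were higher, 2 at least 1.5-fold, with a median of 0.06. Of 13 synaptic and maturing neuron genes, 12 were higher with a median of 0.51, against 0.23 in the restricted set. The medians of all these lists were lower in the restricted set, as was that of all genes. Of all genes counted, 67.7% were higher, 17.4% at least 1.5-fold, and 58.3% were higher in the restricted set. Of 19 autism-linked genes, 18 were higher, 8 at least 1.5-fold, with a median of 0.47, and 15 of 20 in the restricted set, with a median of 0.30. Among them were the chromatin regulator Kmt2c (1.64 times) and the neuronal factor Myt1l (2.15 times).

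Olfactory bulb genes were split. Pax6, a paired box factor, stood at 22.4 CPM in Ncr1-cre poly(I:C) and 72.8 CPM in Ncr1-cre saline, 3.24-fold lower in poly(I:C), and Etv1 at 63.0 CPM in poly(I:C) and 130 CPM in saline, 2.07-fold lower. Of the 7 measured genes, 3 were higher and 4 lower, with a median log2 ratio of -0.35. Medial eminence genes, 4 of them measured, had 1 higher and 3 lower, with a median of -1.08. In the restricted set all 4 were lower, with a median of -0.56. Over all members, the measured ones included Maf, at 1045 CPM in microglia-like cells and 232 CPM in members. They also included Sst, whose 77 saline UMIs lay in 1 cell. Lhx6 and Nkx2-1 were under the minimum level and higher in poly(I:C), in few cells. Lhx6 stood at 15.9 CPM in poly(I:C) and 6.27 CPM in saline, and Nkx2-1 at 11.5 CPM in poly(I:C) and 2.51 CPM in saline. The list's median therefore gives no direction for Lhx6 or Nkx2-1.

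Genes lower in poly(I:C) members were mostly ones with a higher level in microglia-like cells than in members: 215 of the 246 that met the naming rule. All 6 measured interferon-stimulated genes were at least 1.5-fold lower, with a median log2 ratio of -2.22. Of all genes counted, 9.17% were at least 1.5-fold lower. The list holds 30 genes. Of those measured, Ifi27l2a, Ifitm3 and Bst2 were under 50 CPM in Ncr1-cre poly(I:C) and reached the minimum level through other libraries. That favours a lower value in poly(I:C), so the count and median are descriptions only. Ifi27l2a was 19.0-fold lower in poly(I:C), Ifitm3 6.92-fold, Bst2 5.05-fold and B2m 4.49-fold. The osteopontin gene Spp1 was 8.81-fold lower, Emp3 7.52-fold, Lst1 4.52-fold and the lipoprotein gene Apoe 3.60-fold. The stefins Stfa1 (9.74-fold), BC100530 (9.37-fold), Stfa3 (8.59-fold) and Stfa2 (5.66-fold) were lower as well. The interferon list had 1 measured gene in the restricted set, and it was also at least 1.5-fold lower, with a log2 ratio of -1.63. Ifi27l2a, Ifitm3, Bst2 and B2m stayed at least 1.5-fold lower in each of 11 settings, with ratios of 0.0113 to 0.317. Over the kept cells that were not members, the fold differences of the genes named above were 0.741 to 1.58, so the lower level was much smaller or missing there. Neutrophil markers summed to 0.0758% of member UMIs in Ncr1-cre poly(I:C) and 0.743% in Ncr1-cre saline, and microglia markers to 0.271% in poly(I:C) and 0.886% in saline. The part of that RNA in these differences was not tested.

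**Figure D5:**
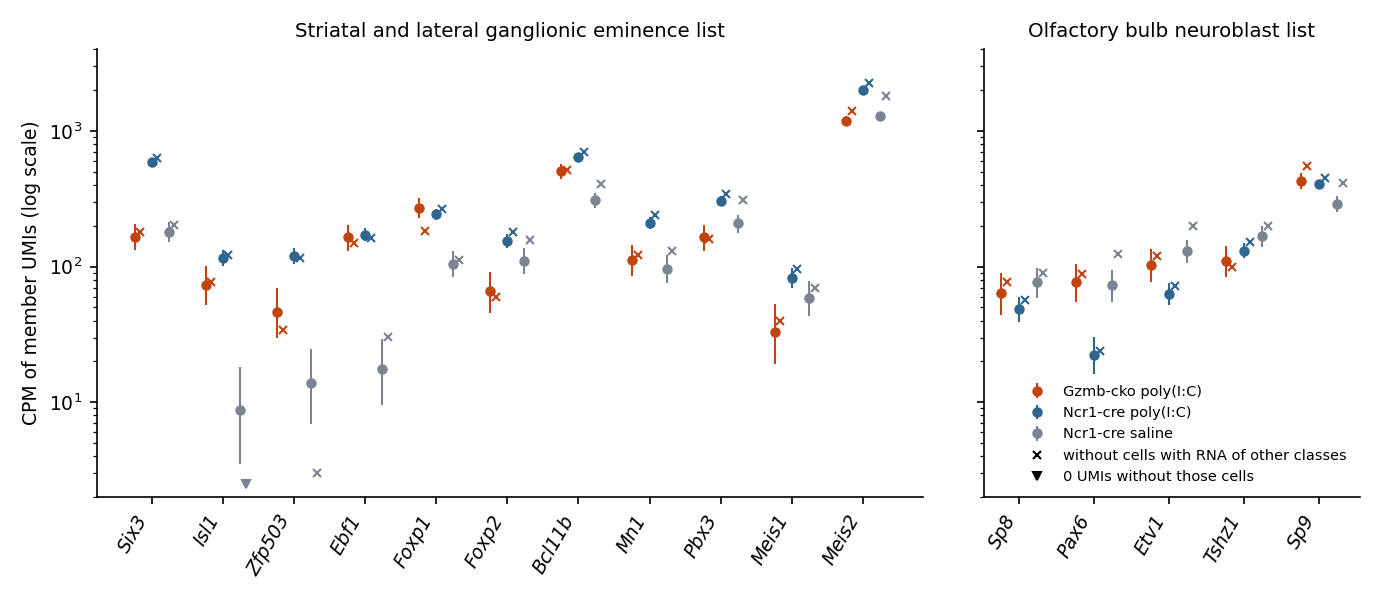
Level of regional genes in members (CPM of member UMIs, log axis, exact 95% intervals), circles for all members and crosses for the restricted set; a triangle marks 0 UMIs, and Meis2, which is on both lists, is drawn once. Of the 11 striatal genes shown, all were higher in Ncr1-cre poly(I:C) than in Ncr1-cre saline, while Pax6 was lower in Ncr1-cre poly(I:C) (22.4 CPM) than in Gzmb-cko poly(I:C) (77.5 CPM) and Ncr1-cre saline (72.8 CPM).

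With Gzmb-cko against Ncr1-cre, both under poly(I:C), the striatal list ran the other way. Of its 11 measured genes, 10 were lower in Gzmb-cko, 8 at least 1.5-fold, with a median log2 ratio of -0.88, against -0.04 for all 3257 genes. Of all genes, 43.8% were higher, 5.31% at least 1.5-fold higher and 5.28% at least 1.5-fold lower. Zfp503 and Meis1 were under 50 CPM in Gzmb-cko and were measured through the other libraries, so this count too is a description. In the restricted set all 11 were lower, 8 at least 1.5-fold, with a median of -0.97, while 3.95% of all genes were at least 1.5-fold higher and 6.73% lower. Zfp503 was 2.58-fold lower in Gzmb-cko (46.5 CPM, against 120 CPM in Ncr1-cre), Meis1 2.51-fold (32.9 CPM, against 82.7 CPM in Ncr1-cre) and Foxp2 2.36-fold (65.8 CPM, against 156 CPM in Ncr1-cre). Over all members Foxp1 did not follow the list, at 271 CPM in Gzmb-cko and 242 CPM in Ncr1-cre (1.12 times, 0.918 to 1.35). In the restricted set Foxp1 was lower in Gzmb-cko, with the rest of the list. This comparison and the last share the Ncr1-cre poly(I:C) library, so a high value there moves both in opposite directions.

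Other genes lower in Gzmb-cko included Gucy1a3 (2.42-fold), Pou3f1 (2.40-fold), Zfhx4 (2.44-fold), Zfhx3 (2.22-fold), the adhesion gene Flrt2 (2.50-fold), the vesicular monoamine transporter Slc18a2 (2.68-fold) and Pid1 (2.47-fold). Cdkn1c, an imprinted inhibitor of cell division, was 4.50-fold lower (2.52 to 8.86), Igfbp2 4.89-fold and the linker histone Hist1h1b 2.19-fold (1.92 to 2.50). Over the kept cells that were not members, the fold by which Gzmb-cko was lower was 3.84 for Igfbp2, 1.53 for Cdkn1c, 1.97 for Hist1h1b, 3.25 for Gucy1a3, 1.42 for Pou3f1, 0.985 for Zfhx3, 2.56 for Flrt2, 2.28 for Slc18a2, 2.27 for Zfhx4, 1.90 for Zfp503 and 1.23 for Pid1. Zfhx3 was therefore the gene of this group without a lower level outside the members.

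Pax6 was the named gene higher in Gzmb-cko that is not a gene of microglia-like cells. It stood at 77.5 CPM in Gzmb-cko, against 22.4 CPM in Ncr1-cre, a ratio of 3.45 (2.18 to 5.47), and 3.70 in the restricted set. It was read in 27.4% of Gzmb-cko members (17.6% to 39.1%) and 11.9% of Ncr1-cre members (8.41% to 16.1%), against 0.183% of microglia-like cells in Gzmb-cko and 0.226% in Ncr1-cre. Outside the members the ratio was 0.417, the opposite direction. Nr2f1, a nuclear receptor of caudal eminence cells, was also higher, at 110 CPM in Gzmb-cko and 55.3 CPM in Ncr1-cre (2.00 times, 1.42 to 2.79).

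The other 11 named genes higher in Gzmb-cko were all higher in microglia-like cells than in members, as were 113 of the 137 that met the rule. They were Ehd4 (5.42 times), Bst2 (4.90), Fosb (4.16), Fcgrt (3.83), Stab1 (3.77), Ccl3 (3.67), Lgals1 (3.01), Maf (2.98), Gas6 (2.70), Mt1 (2.51) and Apoe (2.22). Outside the members the ratios were 1.11 for Ehd4, 1.23 for Bst2, 1.09 for Fosb, 1.28 for Fcgrt, 1.53 for Stab1, 1.01 for Ccl3, 1.51 for Lgals1, 1.28 for Maf, 1.27 for Gas6, 1.30 for Mt1 and 1.32 for Apoe. Restricted-set ratios were 1.09 for Fosb, 1.18 for Bst2 and 0.656 for Stab1. With at most 5% mitochondrial UMIs, which left 32 Gzmb-cko members, the ratios of Ehd4, Fosb, Stab1, Fcgrt, Maf, Lgals1 and Apoe lay between 0.499 and 0.994, on the other side of 1. Border-associated macrophage markers summed to 0.143% of member UMIs in Gzmb-cko and 0.0274% in Ncr1-cre, and microglia markers to 0.445% in Gzmb-cko and 0.271% in Ncr1-cre. The part of that RNA in these differences was not tested.

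Immediate early genes, which respond to activity and to tissue dissociation, were higher in Gzmb-cko in 13 of 14 cases, 9 at least 1.5-fold, with a median log2 ratio of 0.75. Fosb, on that list, was under 50 CPM in Ncr1-cre and was measured through Gzmb-cko, so the count is a description. Egr1 stood at 207 CPM in Gzmb-cko and 86.5 CPM in Ncr1-cre (2.40 times, 1.86 to 3.08), and its ratio was 3.42 in the restricted set. Of the 7 measured in the restricted set, 4 were higher, with a median of 0.32. Egr1 was read in 73.6% to 79.5% of microglia-like cells and in 52.0% of Gzmb-cko and 19.7% of Ncr1-cre members. Immature neuron genes were lower in Gzmb-cko in 21 of 27 cases, 3 at least 1.5-fold, with a median of -0.26, and Stmn2, a growth cone phosphoprotein that the rule used, was 1.65-fold lower. Of all genes counted in this comparison, 43.8% were higher, 5.31% at least 1.5-fold higher and 5.28% at least 1.5-fold lower. In the restricted set 45.3% of all genes were higher.

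Gzmb-cko poly(I:C) against Ncr1-cre saline changes both genotype and treatment, and it shares a library with each comparison above. The striatal list was split, with 6 of 11 genes higher and 5 lower and a median log2 ratio of 0.22. At least 1.5-fold higher were 5 of them, and at least 1.5-fold lower 2. In the restricted set 3 of 9 were higher and 6 lower, with a median of -0.17. The median of all genes was 0.13, with 62.9% higher, 11.7% at least 1.5-fold higher and 7.91% at least 1.5-fold lower. Of the genes past 1.5-fold, 59.6% were higher by totals and 32.0% after TMM scaling. Six3 stood at 167 CPM in Gzmb-cko poly(I:C) and 181 CPM in Ncr1-cre saline (0.922). That ratio was 1.62 with at most 5% mitochondrial UMIs, 1.29 with at least 3 of 5 GABAergic genes and 1.22 without dividing members, so no direction is given for it. Isl1, by contrast, stood at 73.6 CPM in Gzmb-cko poly(I:C) and 8.78 CPM in Ncr1-cre saline, in 6 Gzmb-cko poly(I:C) and 2 Ncr1-cre saline cells. Meg3, an imprinted non-coding RNA of neurons, was 2.21 times as high in Gzmb-cko poly(I:C) (1.99 to 2.46), Foxp1 2.57 times, Rpa3 3.19 times and Polr3k 2.94 times. Fosb was 3.41 times as high, but its ratio was 0.758 without the barcodes of highest doublet score and 0.411 with at most 5% mitochondrial UMIs. The genes named as lower in Gzmb-cko poly(I:C) were Stfa1 (6.96-fold), BC100530 (6.25-fold), Lyz2 (5.91-fold), Ifitm3 (7.82-fold) and Stfa3 (5.14-fold), lysozyme, interferon-induced and stefin genes of myeloid cells. Outside the members the ratios were 1.29 for Meg3, 1.01 for Foxp1, 1.82 for Fosb, 2.16 for Rpa3 and 1.33 for Polr3k, and the folds lower were 3.64 for Stfa1, 3.61 for BC100530, 1.16 for Lyz2, 1.34 for Ifitm3 and 3.21 for Stfa3.

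The members also differed in how many were dividing. Mki67 or Top2a, genes of proliferating cells, were read in 41.1% of members in Gzmb-cko poly(I:C) (29.7% to 53.2%), 39.3% in Ncr1-cre poly(I:C) (33.7% to 45.1%) and 63.0% in Ncr1-cre saline (54.0% to 71.4%). The saline members thus held the largest share. Without the members carrying other RNA the shares were 41.7% in Gzmb-cko poly(I:C), 36.1% in Ncr1-cre poly(I:C) and 65.3% in Ncr1-cre saline. With members thinned to 3000 UMIs, Mki67 was read in 37.1% of members in Gzmb-cko poly(I:C), 29.5% in Ncr1-cre poly(I:C) and 47.2% in Ncr1-cre saline. Microglia-like cells also divide, with Mki67 in 26.2% in Gzmb-cko poly(I:C), 20.3% in Ncr1-cre poly(I:C) and 30.5% in Ncr1-cre saline, in the same order of libraries as the thinned members, so free RNA of other cells was not separated from the members' own.

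Among G2 and M phase genes, 14 of 18 were lower in Ncr1-cre poly(I:C) than in Ncr1-cre saline, none at least 1.5-fold, with a median log2 ratio of -0.22. All 20 measured in the restricted set were lower, 16 at least 1.5-fold, with a median of -0.81. Plk1, a mitotic kinase, had a ratio of 0.786 over all members and 0.374 in the restricted set. S phase genes were higher in 12 of 14 cases over all members (median 0.32) and in 8 of 14 in the restricted set (median 0.06). Of all genes counted, 67.7% were higher over all members and 58.3% in the restricted set, so the restricted-set count was near that of all genes. Leaving out dividing members, also a choice made after seeing the data, gave a Six3 ratio of 4.26 for poly(I:C) over saline.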

How the data were processed

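The authors deposited unnormalised UMI counts for 3 libraries, as matrices of genes by barcodes. Cell Ranger 5.0.0 made them, per the file headers; Cell Ranger 3.0.1, STAR and mm10 are named per the submitters' processing notes. The sources used here do not give the rule for calling cells. Near-identical genes, such as the stefins, may share reads and are uncertain.

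Members were found by the rule given in the report, and doublets were not removed. As an alternative, the barcodes with the highest Scrublet scores (scanpy 1.11.5), up to 0.8% per 1000 barcodes, were left out, since the automatic threshold called none in 2 libraries. Microglia-like cells had C1q genes at 1% or more of UMIs, at least 2 of 5 microglial marker genes, and fewer than 2 of the 4 neuronal genes. Member UMIs were summed per library and divided by their total (CPM). Genes were counted where their CPM averaged 50 or more over all 3 libraries and the pair compared held at least 30 of their UMIs, and a ratio of at least 1.5 was called. Counted genes of a list are its measured genes. Each library is 1 sample, so no test was made. Levels have Poisson, ratios conditional binomial and shares Clopper-Pearson intervals (scipy 1.17.1). TMM factors came from edgeR 4.0.16, for scaling alone. The calculation of ratios and intervals was tested on simulated data. PCR duplicates were removed by UMI.

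Named genes were detected in at least 10% of members of the higher library, past 1.5-fold, and in the same direction after TMM scaling and as the mean of per-cell CPM. Markers of other classes, mitochondrial, ribosomal, haemoglobin, sex-linked and unnamed genes were left out. The 12 per direction with the interval bound farthest from 1 were named in the first 2 comparisons and 5 in the third. For Six3, the 10 genes with the largest ratio between Six3-positive and Six3-negative members were named, among those above 100 CPM. Nr2f1, Ebf1, Nr2f2, Etv1 and Zfp503 beside Six3 were chosen after their values were seen. Of 525 genes in 27 lists, 522 were found in the table. Some genes are not reported here. Members and lists were chosen with earlier results of these data known. Positions are those of GENCODE M21, matched by gene ID.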

Additional observations from a re-analysis of the deposited data

How the results depend on the processing

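No paired analysis was possible because each group has 1 library. A single library and few Gzmb-cko members limit every value, and leaving out a library leaves no comparison. The order of the 3 shares, and a Six3 level that was highest in Ncr1-cre poly(I:C), held under every alternative run. Of the ratios, shares and counts recomputed, 1510 stayed within counting error or 1.5 times and 360 moved beyond it. The causes of the moves below were not tested. With C1q at most 0.2% of UMIs and in the restricted set, Isl1 had 0 UMIs in Ncr1-cre saline, so no ratio against it was computed.

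The share of kept cells was 3.26% in Ncr1-cre poly(I:C) above the saline UMI minimum and 3.25% with at least 1000 genes. With at most 5% mitochondrial UMIs it was 0.343% in Gzmb-cko poly(I:C) and 3.15% in Ncr1-cre poly(I:C). With C1q at most 0.2% of UMIs it was 0.675% in Ncr1-cre saline. With at least 3 of 5 GABAergic genes it was 2.17% in Ncr1-cre poly(I:C) and 0.840% in Ncr1-cre saline. In the restricted set it was 2.34% in Ncr1-cre poly(I:C) and 0.593% in Ncr1-cre saline. Thinned to 3000 UMIs it was 0.356% in Gzmb-cko poly(I:C), 2.44% in Ncr1-cre poly(I:C) and 0.659% in Ncr1-cre saline. As a share of GABAergic and glutamatergic cells it was 56.2%, 89.9% and 78.9% in that order of libraries.

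For poly(I:C) over saline, 567 genes were at least 1.5-fold higher and 299 lower. The higher count was 295 after TMM scaling, 270 with median-of-ratios scaling and 897 without cycling members, and the lower count was 451 with totals that leave out mitochondrial, ribosomal and haemoglobin genes. With a mean of at least 20 CPM the counts were 1345 higher and 656 lower, and with 100 CPM 254 and 142, since other numbers of genes enter. For Gzmb-cko over Ncr1-cre, both poly(I:C), 173 were higher and 172 lower. The higher count was 285 with those reduced totals and 109 with C1q at most 0.2%, and the lower count 377 with at most 5% mitochondrial UMIs. Without cycling members the counts were 352 higher and 344 lower, with 20 CPM 505 and 568, and with 100 CPM 72 and 63. For Gzmb-cko poly(I:C) over Ncr1-cre saline, 380 were higher and 258 lower. TMM scaling gave 186 higher and 395 lower, median-of-ratios 192 higher, the reduced totals 390 lower, 20 CPM 855 and 602, and 100 CPM 124 and 120.

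The Six3 ratio of poly(I:C) over saline was 2.38 without Scrublet doublets, 2.62 with C1q at most 0.2%, 4.36 with at least 3 of 5 GABAergic genes and 4.26 without cycling members. Gzmb-cko over Ncr1-cre was 0.499 with at most 5% mitochondrial UMIs. Gzmb-cko poly(I:C) over Ncr1-cre saline was 1.62 with at most 5% mitochondrial UMIs, 1.29 with at least 3 of 5 GABAergic genes and 1.22 without cycling members, against 0.922.

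Thinned to 3000 UMIs, the share of members with a UMI in Ncr1-cre poly(I:C) was 38.9% for Six3, 26.9% for Foxp1, 11.3% for Isl1, 0% for Sst, 10.9% for Prox1, 12.7% for Sp8 and 6.18% for Pax6. In Ncr1-cre saline it was 13.4% for Six3, 11.0% for Prox1, 15.0% for Pax6, 87.4% for Meis2, 0% for Lhx1 and 0% for Tfap2b. In the restricted set it was 0% for Isl1 in Ncr1-cre saline, 0% for Gata2 and Gata3 and 0.794% for Otx2 in Ncr1-cre poly(I:C), and 0% for Otx2 in Gzmb-cko poly(I:C).

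Directions turned for 10 named genes. Gzmb-cko over Ncr1-cre turned without Scrublet doublets for Stab1 (0.521) and Mt1 (0.978), and with C1q at most 0.2% for Fosb (0.957), Stab1 (0.670) and Gas6 (0.773). It turned with at most 5% mitochondrial UMIs for Ehd4 (0.703), Fosb (0.859), Stab1 (0.499), Fcgrt (0.703), Maf (0.944), Lgals1 (0.902) and Apoe (0.994), and in the restricted set for Stab1 (0.656). Fosb in Gzmb-cko poly(I:C) over Ncr1-cre saline was 0.758 without Scrublet doublets and 0.411 with at most 5% mitochondrial UMIs. Igfbp2 in poly(I:C) over saline was 0.957 in the restricted set and 0.917 without cycling members.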

Other observations

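Mitochondrially encoded genes were graded over the libraries. All 11 measured were higher in Gzmb-cko poly(I:C) than in Ncr1-cre poly(I:C), with a median log2 ratio of 0.36, and 10 of 11 were higher in Ncr1-cre poly(I:C) than in Ncr1-cre saline (median 0.47). In Gzmb-cko poly(I:C) against Ncr1-cre saline all 11 were higher, 9 at least 1.5-fold (median 0.85). The ATP synthase subunit mt-Atp6 was 2.17 times as high there, and the median mitochondrial share per member was 5.44% in Gzmb-cko poly(I:C), 3.99% in Ncr1-cre poly(I:C) and 2.80% in Ncr1-cre saline. The rule capped that share at 10%. Nuclear genes of oxidative phosphorylation did not follow: 26 of 34 were lower in Ncr1-cre poly(I:C) than in Ncr1-cre saline (median -0.17), and 30 of 34 in the restricted set (median -0.34). Ndufa3, a complex I subunit, was 1.69-fold lower. Of all genes counted, 67.7% were higher in Ncr1-cre poly(I:C) than in Ncr1-cre saline, and 58.3% in the restricted set. In Gzmb-cko poly(I:C), 43.8% of all genes were higher than in Ncr1-cre poly(I:C). Against Ncr1-cre saline 62.9% were higher there, 11.7% at least 1.5-fold.

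Cholesterol synthesis genes were higher in Ncr1-cre poly(I:C) than in Ncr1-cre saline in 6 of 7 cases, 4 at least 1.5-fold, with a median log2 ratio of 0.74, and 0.35 in the restricted set. Fdps stood at 150 CPM in Ncr1-cre poly(I:C) and 71.5 CPM in Ncr1-cre saline (2.10 times, 1.57 to 2.84), and Hmgcs1 at 199 CPM in Ncr1-cre poly(I:C) and 95.3 CPM in Ncr1-cre saline (2.09 times, 1.63 to 2.71). Heat shock genes were higher in 9 of 10 cases (median 0.41), and 7 of 10 in the restricted set (median 0.04). All 10 measured genes of the unfolded protein response were lower in poly(I:C) (median -0.21), while 5 of 9 were higher in the restricted set. Of all genes counted in this comparison, 67.7% were higher, 17.4% at least 1.5-fold, and 58.3% were higher in the restricted set. The restricted-set count of the unfolded protein response was near that last share.

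Neuropeptide RNA sat in very few members. Sst, the somatostatin gene, had 68 UMIs in 3 members of Gzmb-cko poly(I:C), 2 UMIs in 1 member of Ncr1-cre poly(I:C) and 77 UMIs in 1 member of Ncr1-cre saline. Npy, the neuropeptide Y gene, had 88 UMIs in 6 members of Gzmb-cko poly(I:C), 90 in 16 of Ncr1-cre poly(I:C) and 30 in 4 of Ncr1-cre saline.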
